A study of Homo sapiens with 12 samples.

Results

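Respiratory complexes III and IV and the ATP synthase are described here through the nuclear genes that encode their subunits, together with the assembly genes that share their naming. The rule took every gene whose symbol begins with UQCR, UQCC or ATP5, or with COX before a digit, and represented each by the probe set that carried its symbol alone and had the highest mean over the 12 arrays. It gave 55 genes of 18417 measured: 7 subunits and 5 assembly factors of complex III, 17 subunits and 6 assembly factors of complex IV, 18 genes of the ATP synthase and its inhibitor, and 2 pseudogenes, ATP5F1EP2 and UQCRBP1. ATP5F1E, COX16, COX17, COX19 and UQCRHL had probe sets shared with other symbols alone, and UQCRFS1 and UQCC6 were not analysed here. A further 8 genes carry a matching name as an older symbol only (PTGS1, PTGS2, CHCHD7, CYC1, DMAC2L, EMC8, COA3 and DMAC2) and were not counted as members. The count of complex III subunits therefore leaves out CYC1 (older name UQCR4), which is given with the further complex III genes.

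RNA came from Calu-3, an established human airway epithelial line, that had received an siRNA, a small interfering RNA, against SIN3A (3 arrays), a mimic of the microRNA miR-138 (3 arrays), or NC1, a scrambled control RNA (6 arrays), delivered with lipofectamine RNAiMAX in each case. No genotype, dose or time is given in the sources used here, and the extraction notes speak of primary cultures although every label names Calu-3. The values are log2 levels, so a difference of 1 is a doubling, and levels of different genes cannot be set against each other on these arrays. The arrays are labelled as biological replicates, but separate cultures are not stated, and the p-values reflect how far these arrays spread, which may be technical. In RNA from a whole culture, fewer cells of a kind and less RNA per cell cannot be told apart.

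Complex III passes electrons from ubiquinol to cytochrome c, complex IV passes them on to oxygen, and the proton gradient that these complexes build across the inner mitochondrial membrane drives the rotation of the ATP synthase, which makes ATP. Some subunits are made inside the mitochondrion, in complex III cytochrome b alone, and the others are encoded in the nucleus, so assembly needs chaperones that hold the mitochondrial subunits until their nuclear partners arrive. In airway epithelium this ATP feeds ion transport and ciliary beating. SIN3A, on which a histone deacetylase complex is built, was studied here beside miR-138, whose mature 5p strand is shown with its seed in capitals (bases 2 to 8) because its mimic is one of the interventions; the labels do not name the strand used.

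hsa-miR-138-5p: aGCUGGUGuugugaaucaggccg

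RefSeq (GRCh38.p14) places this 23-base strand at chr3:44114234-44114256 (MIR138-1) and chr16:56858527-56858549 (MIR138-2), both on the plus strand. Promoters are shown for UQCC5, COX5B and COX14, which had the smallest adjusted p values with SIN3A siRNA among members. Each runs from 250 bases before to 50 bases after the RefSeq start of the gene (GRCh38.p14, plus strand), at chr3:52536355-52536654 for UQCC5, chr2:97645812-97646111 for COX5B and chr12:50111986-50112285 for COX14. Capitals mark matches to the core motifs of factors known for nuclear respiratory genes.

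UQCC5: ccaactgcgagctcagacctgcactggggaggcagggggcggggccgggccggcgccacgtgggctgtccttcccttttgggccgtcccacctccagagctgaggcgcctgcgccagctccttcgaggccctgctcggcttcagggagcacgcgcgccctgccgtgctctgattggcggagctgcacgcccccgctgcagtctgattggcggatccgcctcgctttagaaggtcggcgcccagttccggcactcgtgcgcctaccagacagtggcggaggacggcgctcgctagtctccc

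COX5B: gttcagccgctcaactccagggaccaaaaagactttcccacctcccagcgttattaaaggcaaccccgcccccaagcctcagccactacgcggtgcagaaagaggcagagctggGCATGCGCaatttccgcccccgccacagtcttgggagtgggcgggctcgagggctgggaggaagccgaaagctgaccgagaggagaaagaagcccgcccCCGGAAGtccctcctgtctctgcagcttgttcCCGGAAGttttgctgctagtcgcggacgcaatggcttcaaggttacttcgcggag

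COX14: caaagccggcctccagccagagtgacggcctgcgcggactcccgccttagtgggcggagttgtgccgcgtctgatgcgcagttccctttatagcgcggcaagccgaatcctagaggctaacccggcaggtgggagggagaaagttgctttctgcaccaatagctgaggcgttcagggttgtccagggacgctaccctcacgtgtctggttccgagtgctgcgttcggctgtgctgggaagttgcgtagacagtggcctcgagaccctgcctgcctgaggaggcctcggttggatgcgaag

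The motifs searched on both strands were GCGCATGC for NRF1, CCGGAAG for the ETS factor GABPA and AAGATGGC for YY1. An NRF1 core flanked by GC overlaps its own reverse complement and can then match on both strands. The COX5B promoter held an NRF1 core on the minus strand from base -136 and GABPA cores from bases -37 and -5, counted from the start, and the windows of UQCC5 and COX14 held none of these letters. Promoter entries were matched for 42 of the 55 members. An NRF1 core stood in 8 of them (19.0%, against 4.19% of 14237 promoters of measured genes and 3.05% of all 35116), a GABPA core in 15 (35.7%, against 14.6% and 10.3%) and a YY1 core in 6 (14.3%, against 4.07% and 2.89%). Any of these motifs stood in 22 of the 42 (52.4%, against 20.7% of measured genes), and in 1 of the 5 matched members that were called with SIN3A siRNA. These are matches of letters, with no measurement of binding.

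The array medians over genes lay between 5.25 and 5.33, with the highest in NC1 6 and NC1 3. SIN3A was lower with both interventions, at 6.03 ± 0.14 with the siRNA and 6.08 ± 0.16 with the mimic (SD, n = 3 each), against 6.91 ± 0.36 with NC1 (SD, n = 6). The log2 differences were -0.88 for the siRNA (SE 0.17, limma adjusted p = 0.0111, and 0.0119 by the exact permutation test, which is the lowest p its 84 splits allow) and -0.83 for the mimic (SE 0.17, limma adjusted p = 0.0304, and 0.0238 by the exact permutation test). The siRNA's call was lost without siRNA array 2 or 3, and the mimic's under 9 of the alternatives tried (limma adjusted p up to 0.202). Against NC1 4 to 6 and NC1 1 to 3 alone, SIN3A was at -1.18 and -0.59 with the siRNA and at -1.13 and -0.54 with the mimic. NC1 replicates 4 to 6 stood apart from replicates 1 to 3 in SIN3A as in many other genes, a division the labels do not explain, so the members are also set against either part alone. Mean levels of 12 airway epithelial markers were 7.52 to 7.57 in siRNA arrays and 7.44 to 7.54 in mimic arrays, against 7.58 to 7.64 in NC1 arrays. CFTR, the chloride channel, was the only 1 of them called against all NC1 arrays (-1.34 with the siRNA). Against NC1 4 to 6 alone, 2 airway markers were lower with the siRNA and 1 with the mimic (6.28% and 1.89% of all genes). Against NC1 1 to 3 alone, 1 was lower with the siRNA and 2 with the mimic (2.04% and 2.54% of all genes). None was higher in these comparisons, and 1 was higher in NC1 4 to 6 than in NC1 1 to 3 (6.86% of all genes). Lists of fibroblast (8 genes), leukocyte (7) and endothelial (8) markers held no called member against all NC1 arrays. Against NC1 4 to 6 alone, 1 leukocyte marker was called higher with the siRNA and 1 with the mimic (5.16% and 1.59% of all genes). Against NC1 1 to 3 alone, 1 was called lower with the mimic (2.54% of all genes). Between the parts, 1 leukocyte marker was lower in NC1 4 to 6 than in NC1 1 to 3 (3.18% of all genes). Leukocyte marker genes had means from 2.93 to 8.69. The fibroblast list averaged 4.34 to 4.42 in siRNA arrays and 4.31 to 4.34 in mimic arrays, against 4.29 to 4.55 in NC1 arrays.

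With SIN3A siRNA, 9 of the 55 members rose and 0 fell against the 6 NC1 arrays (limma, Benjamini-Hochberg over all 18417 genes, adjusted p under 0.05). Of all genes, 2.35% were called higher and 1.66% lower in this comparison. The members that rose were the complex III assembly genes UQCC5 and UQCC4, the complex IV subunit genes COX5B and COX6C, the complex IV assembly gene COX14, the ATP synthase genes ATP5MF, ATP5MJ and ATP5F1D, and the pseudogene ATP5F1EP2. Counting direction alone, 42 members had a positive difference and 13 a negative one, and the median was 0.17, against -0.01 over all genes. An unadjusted p under 0.05 was found for 26 members, and for 3015 of all 18417 genes. The count of 9 was 4, 3 and 2 without siRNA array 1, 2 and 3, and it was 5 when the mimic arrays were kept out of the fit.

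**Figure D1:**
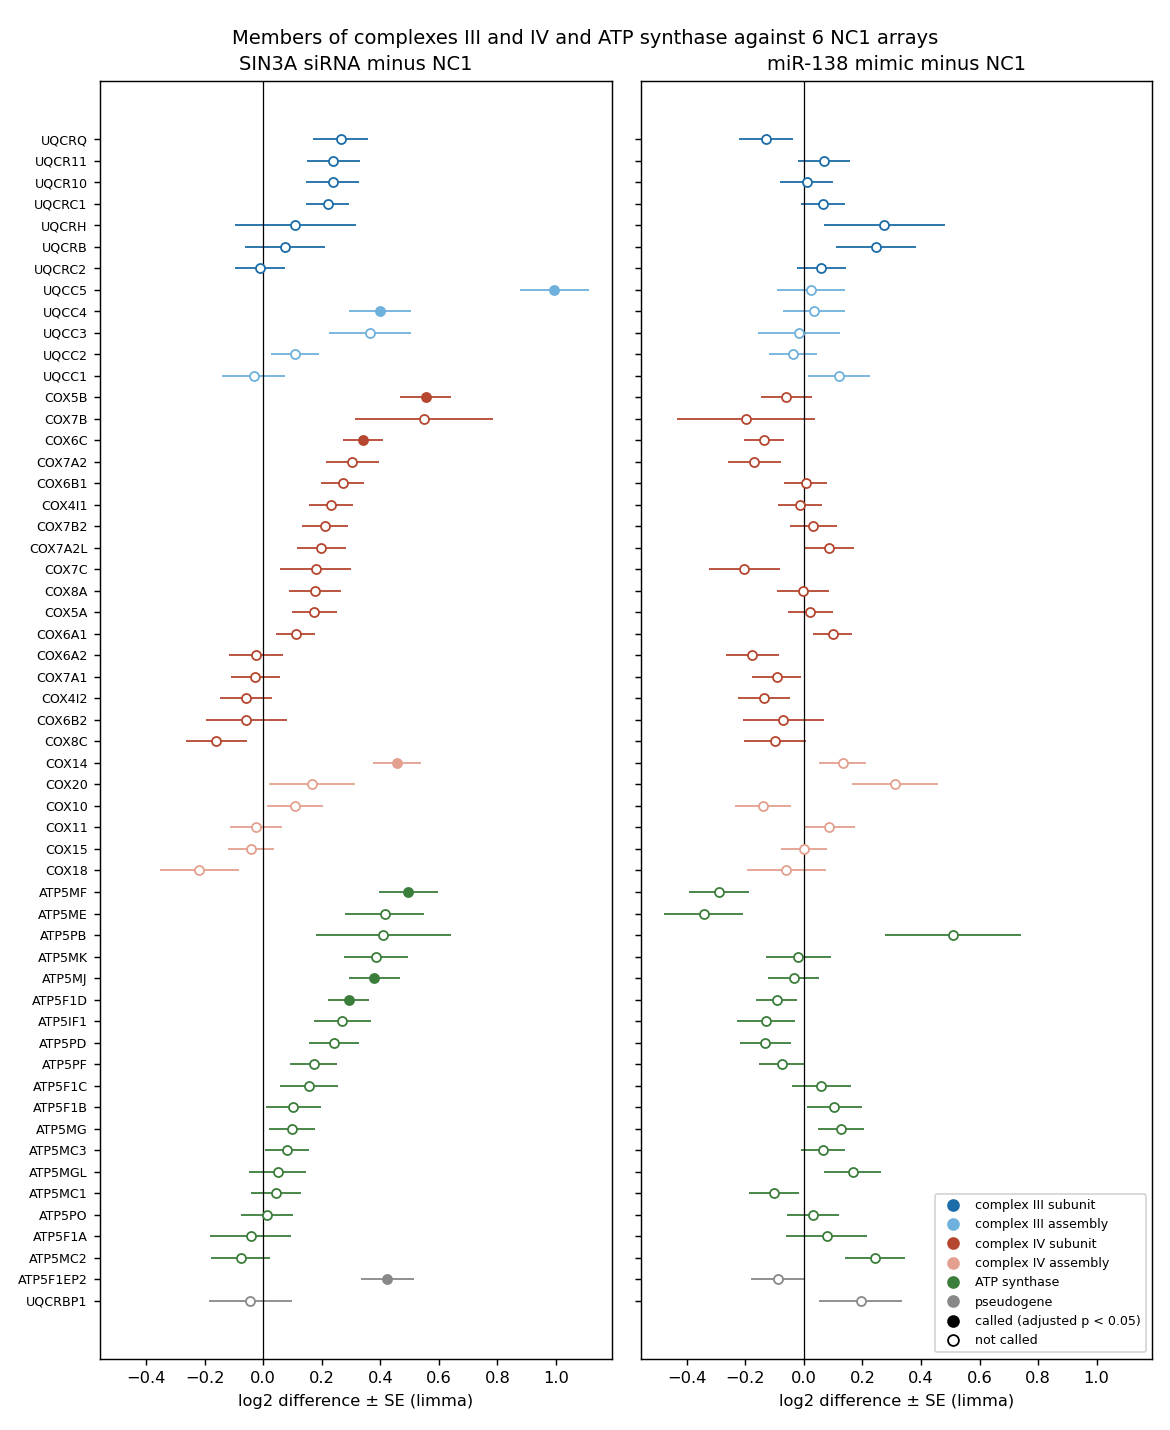
Log2 difference from the 6 NC1 arrays with its limma standard error for each of the 55 members, with SIN3A siRNA on the left and the miR-138 mimic on the right, coloured by complex and filled where the adjusted p was under 0.05. The siRNA panel has 9 filled points, all to the right of 0, and UQCC5 stands farthest out at 0.99; the mimic panel has 0 filled points.

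The separation of single arrays gives the same comparison without a model. For 25 of the 55 members (45.5%) the lowest siRNA array exceeded the highest of 6 NC1 arrays, against 5.49% of all genes, and for 0 members all siRNA arrays lay below, against 3.53% of all genes. Without the arrays NC1 3 and NC1 6, a comparison added after the data were seen, it was 27 members (49.1%, against 7.99% of all genes). By class the siRNA arrays stood above all NC1 arrays for 3 of 7 complex III subunits, 2 of 5 complex III assembly genes, 9 of 17 complex IV subunits, 1 of 6 complex IV assembly genes, 9 of 18 ATP synthase genes and 1 of 2 pseudogenes. The mean over all members in each siRNA array was 7.21, 7.24 and 7.27, against 7.02 to 7.08 in the NC1 arrays, and the mimic arrays lay at 7.03, 7.08 and 7.06.

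**Figure D2:**
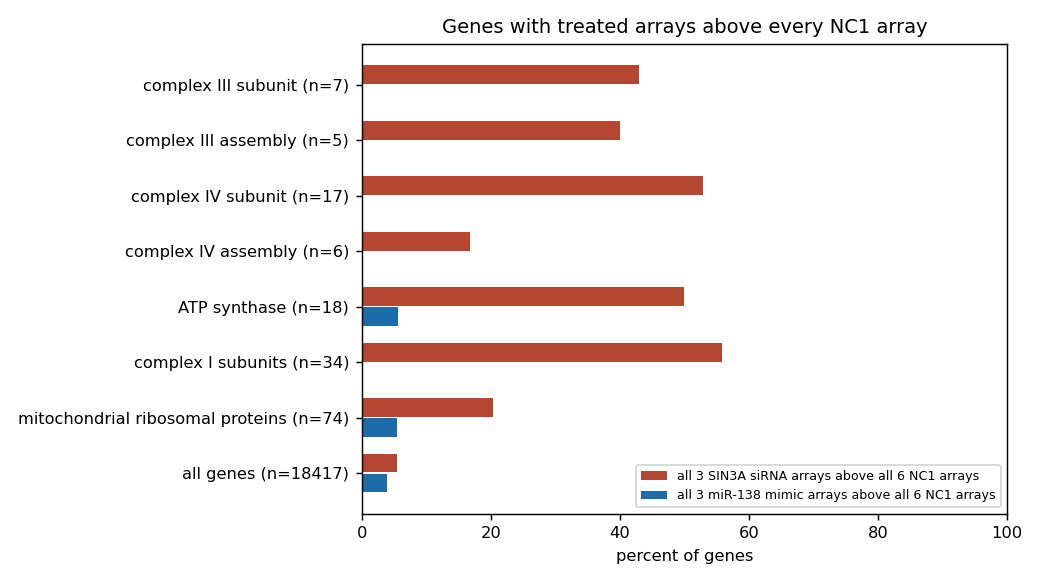
Percent of genes in each class whose 3 treated arrays all lay above all 6 NC1 arrays, with SIN3A siRNA in red and the miR-138 mimic in blue, and n the genes measured. The siRNA bars reach 52.9% for complex IV subunits and 42.9% for complex III subunits, while all genes stand at 5.49% and no class of members exceeds 5.56% with the mimic. For comparison, the siRNA bar of complex I subunits, which are not members, is the longest at 55.9%, and that of mitochondrial ribosomal proteins reaches 20.3%.

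Among the complex III assembly genes, UQCC5 had the largest rise of all members. It encodes a small membrane protein needed for the assembly of complex III. Its level was 6.97, 7.17 and 7.13 in the siRNA arrays, against 6.17, 6.18 and 5.75 in NC1 4 to 6 and 6.33, 6.26 and 5.87 in NC1 1 to 3. The lowest siRNA array was above the highest NC1 array by more than the whole NC1 range, and NC1 3 and NC1 6 were the lowest arrays of their parts. The difference was 0.99 (SE 0.12, 1.99-fold, limma adjusted p = 0.000645). It kept its call under every alternative tried.

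UQCC4, another complex III assembly gene, had the least certain of the 9 calls. Its level was 6.70, 6.48 and 6.47 in the siRNA arrays, against 5.99, 5.94 and 6.39 in NC1 4 to 6 and 6.24, 6.05 and 6.29 in NC1 1 to 3. All siRNA arrays lay above all NC1 arrays, but NC1 6 came close to the lowest of them. The difference was 0.40 (SE 0.11, 1.32-fold, limma adjusted p = 0.0481), and the call was lost under 13 of the alternatives tried, with a highest adjusted p of 0.223. UQCC3, which stabilises newly made cytochrome b, was at 0.37 and was not called. UQCC2 (0.11) and UQCC1 (-0.03), which act in the synthesis of cytochrome b, were not called either, and UQCC1 had the largest negative value of the class.

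None of the 7 complex III subunit genes was called with the siRNA against all NC1 arrays. An unadjusted p under 0.05 was found for 4 of them, and for 3015 of all 18417 genes (limma). Their median was 0.22. The highest was UQCRQ, a small ubiquinol-binding subunit, with 9.26, 9.37 and 9.29 in the siRNA arrays, against 9.01, 8.83 and 8.91 in NC1 4 to 6 and 9.16, 9.13 and 9.22 in NC1 1 to 3. The siRNA arrays of UQCRQ lay above every NC1 array, by a narrow margin over NC1 1 to 3 (difference 0.26, SE 0.09, limma adjusted p = 0.148). Of the core protein genes, UQCRC1 was at 0.22 and UQCRC2 at -0.01. The UQCRC1 probe set was dim, with a mean of 4.59 over the 12 arrays, under the array medians over genes. The small subunit genes UQCR10 and UQCR11 were both at 0.24.

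The 17 complex IV subunit genes held 2 called members and a median of 0.18. COX5B encodes a zinc-binding subunit on the matrix side of the enzyme. Its level was 8.18, 8.25 and 8.14 in the siRNA arrays, against 7.45, 7.74 and 7.62 in NC1 4 to 6 and 7.72, 7.76 and 7.51 in NC1 1 to 3. The siRNA arrays were close together and well above the whole NC1 range. The difference was 0.55 (SE 0.09, 1.47-fold, limma adjusted p = 0.00347), called under every alternative tried. COX6C, a small subunit that spans the inner membrane, was at 10.65, 10.73 and 10.80 in the siRNA arrays, against 10.35, 10.38 and 10.34 in NC1 4 to 6 and 10.47, 10.36 and 10.44 in NC1 1 to 3. Both NC1 parts lay within a narrow band below all siRNA arrays (difference 0.34, SE 0.07, limma adjusted p = 0.0135). The call was lost under 3 of the alternatives tried, among them those without siRNA array 2 or 3 (highest limma adjusted p = 0.0922).

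Several complex IV subunits exist as a broadly expressed form and a form restricted to certain tissues such as muscle or testis. The 11 broadly expressed genes all had positive differences with the siRNA, with a median of 0.23. In 8 of them (72.7%, against 5.49% of all genes) every siRNA array lay above NC1. Among the 6 restricted forms (COX4I2, COX6A2, COX6B2, COX7A1, COX7B2 and COX8C) 1 was positive and 5 were negative, with a median of -0.04. All of these except COX6A2 (mean 6.15 over the 12 arrays) were dim, with means under the array medians over genes. The means were 4.96 for COX4I2, 4.75 for COX7A1, 4.37 for COX8C, 3.51 for COX6B2 and 2.64 for COX7B2. At such levels a difference near 0 may not show whether a gene changed. The contrast between these classes is described, not tested, and this division was made with earlier results known.

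Within the families, COX4I1 was at 0.23 and COX4I2 at -0.06. COX6A1 stood at 0.11 and COX6A2 at -0.02, while COX6B1 was at 0.27 and COX6B2 at -0.06. COX7A2 was at 0.30, COX7A2L, which acts in respiratory supercomplexes, at 0.20, and COX7A1 at -0.03. COX8A was at 0.18 and COX8C, the most negative of the class, at -0.16. None of these was called, COX6B1 being nearest (limma adjusted p = 0.0519). COX7B (0.55, SE 0.24) varied most in NC1 6, with 8.40, 8.54 and 8.83 in the siRNA arrays, against 8.35, 7.98 and 7.13 in NC1 4 to 6 and 8.26, 8.23 and 8.30 in NC1 1 to 3. Again no siRNA array reached down to the NC1 range, yet the difference was not called (limma adjusted p = 0.258). The restricted COX7B2 was at 0.21, at levels (2.72, 2.72 and 2.92 in siRNA arrays, against 2.49 to 2.67 in NC1 arrays) near the low end of the values on these arrays.

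Of the 6 complex IV assembly genes 1 rose, COX14, which encodes a small protein that binds the newly made mitochondrial subunit COX1. Its level was 6.26, 6.36 and 6.44 in the siRNA arrays, against 5.78, 5.98 and 5.75 in NC1 4 to 6 and 6.02, 5.92 and 5.93 in NC1 1 to 3. No NC1 array reached the lowest siRNA array, and the mimic arrays (6.04, 6.09 and 5.96) lay around the top of the NC1 range. The difference was 0.46 (SE 0.08, 1.37-fold, limma adjusted p = 0.00713), and the call was lost only without siRNA array 3 (limma adjusted p = 0.0549). The other genes of the class were not called. COX20, a chaperone of the subunit COX2, was at 0.17, COX10, which makes the precursor of heme A, at 0.11, COX11, which serves copper insertion, at -0.02, and COX15, the heme A synthase gene, at -0.04. COX18, which acts in the membrane insertion of COX2, was lowest at -0.22, and the class had a median of 0.04.

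The 18 ATP synthase genes held 3 called members and a median of 0.16. Among the roles within the enzyme, the small membrane subunits had the highest median against all NC1 arrays. This order depended on the control. Against NC1 4 to 6 alone their median was 0.54, and that of the 4 genes of the catalytic F1 part was 0.00. Against NC1 1 to 3 alone the medians were 0.23 and 0.26. ATP5MF encodes subunit f of the membrane part. Its level was 8.74, 8.72 and 8.77 in the siRNA arrays, against 8.17, 7.98 and 8.25 in NC1 4 to 6 and 8.27, 8.48 and 8.34 in NC1 1 to 3. The siRNA arrays agreed closely and lay above both parts, which themselves stood at different heights. The difference was 0.50 (SE 0.10, 1.41-fold, limma adjusted p = 0.0146), and the call was lost under 4 of the alternatives tried, among them those without any 1 of the siRNA arrays (highest limma adjusted p = 0.0787).

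ATP5MJ, which encodes a small membrane protein attached to the enzyme, was at 9.83, 9.80 and 9.76 in the siRNA arrays, against 9.48, 9.37 and 9.24 in NC1 4 to 6 and 9.38, 9.64 and 9.38 in NC1 1 to 3. NC1 2 was the highest NC1 array and still lay below all siRNA arrays (difference 0.38, SE 0.09, limma adjusted p = 0.0252). The call was lost under 5 of the alternatives tried, among them those without any 1 of the siRNA arrays (highest limma adjusted p = 0.107). ATP5ME (subunit e) and ATP5MK, another small membrane subunit, had values of similar size, 0.42 and 0.38, and were not called (limma adjusted p = 0.112 and 0.0674). A second probe set for ATP5MK gave 0.26, in the same direction. ATP5MG (subunit g) was at 0.10. Over these 5 small membrane subunits the median was 0.38, and 4 of them had every siRNA array above NC1, against 5.49% of all genes.

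In the catalytic F1 part, ATP5F1D, the delta subunit of the central stalk, rose. It was at 6.68, 6.60 and 6.71 in the siRNA arrays, against 6.34, 6.34 and 6.46 in NC1 4 to 6 and 6.34, 6.33 and 6.44 in NC1 1 to 3. NC1 4 to 6 and NC1 1 to 3 were almost level, and the siRNA arrays lay above both. The difference was 0.29 (SE 0.07, 1.22-fold, limma adjusted p = 0.0292), and the call was lost under 8 of the alternatives tried, among them those without any 1 of the siRNA arrays (highest limma adjusted p = 0.141). The subunits that bind nucleotide, ATP5F1A (alpha) and ATP5F1B (beta), were at -0.04 and 0.10, and ATP5F1C (gamma) was at 0.16. The median over these 4 genes was 0.13.

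The c ring, which turns in the membrane, is made of an identical mature peptide encoded by ATP5MC1, ATP5MC2 and ATP5MC3. These genes were at 0.04, -0.08 and 0.08 with the siRNA, none of them called, and ATP5MC2 was the most negative ATP synthase gene. The peripheral stalk genes ATP5PB, ATP5PD, ATP5PF and ATP5PO, which hold the F1 part in place, were at 0.41, 0.24, 0.17 and 0.01 (median 0.21, 0 called). ATP5IF1, the inhibitor that blocks hydrolysis of ATP by the enzyme, was at 0.27. Its siRNA arrays (7.29, 7.27 and 7.30) lay above NC1 4 to 6 (6.92, 6.83 and 6.81) by more than above NC1 1 to 3 (7.21, 7.18 and 7.14).

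ATP5F1EP2, a processed copy of the epsilon subunit gene, rose by 0.42 (SE 0.09, limma adjusted p = 0.0179). It was at 7.26, 7.41 and 7.34 in the siRNA arrays, against 6.97, 6.94 and 6.73 in NC1 4 to 6 and 7.02, 7.08 and 6.73 in NC1 1 to 3. The groups did not overlap, and NC1 3 and NC1 6 were the lowest arrays. The call was lost under 5 of the alternatives tried, again among them those without any 1 of the siRNA arrays (highest limma adjusted p = 0.10). RNA of the parent gene ATP5F1E, whose sequence is nearly the same, may hybridise to this probe set, so which of them gave the signal was not tested. The same holds for UQCRBP1, a copy of the ubiquinone-binding subunit gene UQCRB, and for UQCRH beside UQCRHL. UQCRBP1 was at -0.04 and UQCRB at 0.07, neither of them called. The UQCRB probe set was dim, with a mean of 4.13 over the 12 arrays.

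**Figure D3:**
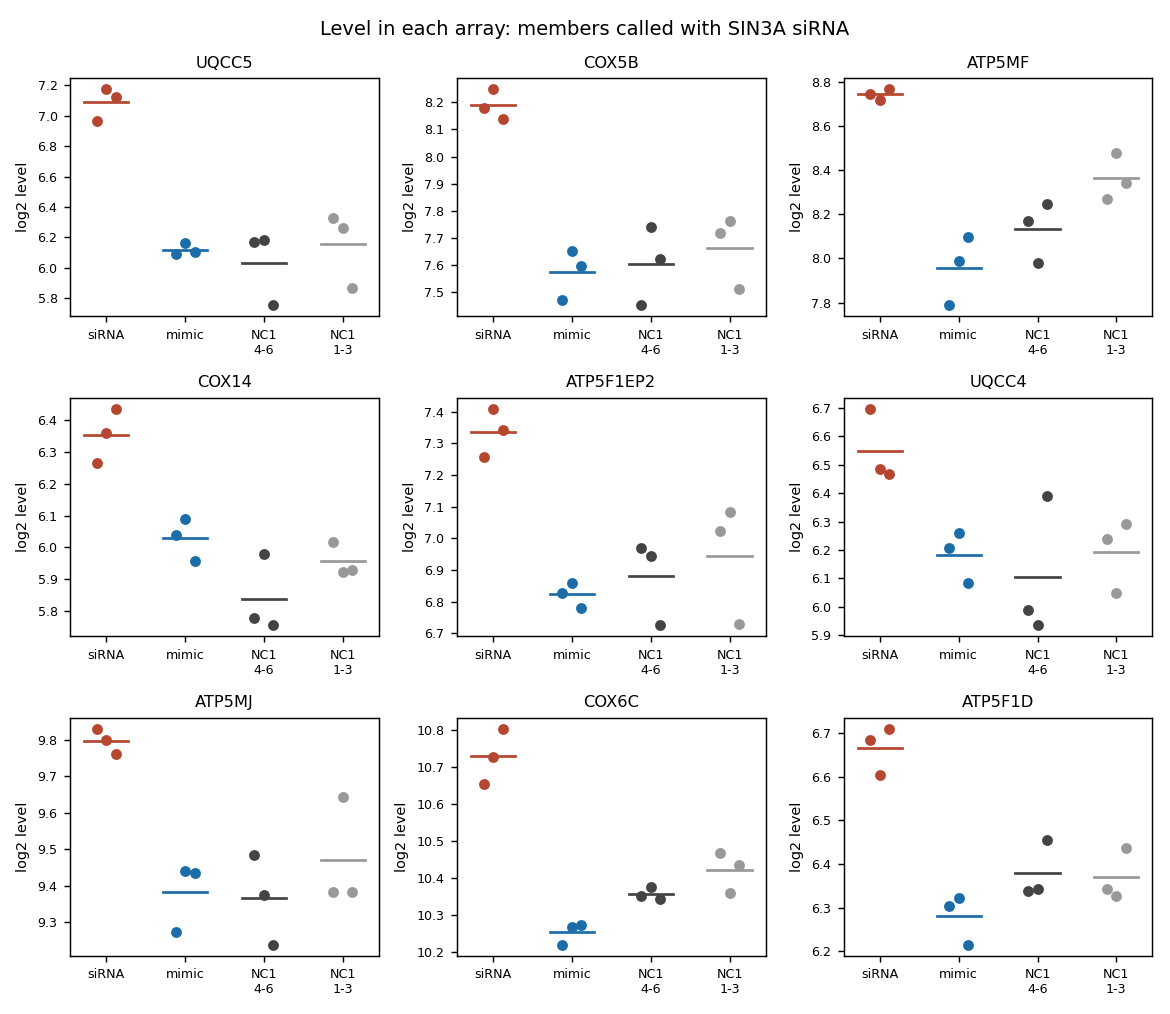
Log2 level in each array for the 9 members called with SIN3A siRNA, in order of their log2 difference, with the siRNA at the left of each panel, then the miR-138 mimic, NC1 4 to 6 and NC1 1 to 3, and a line at each mean. In every panel the 3 siRNA points lie above all points of the other groups, and the gap is widest for UQCC5, where the lowest siRNA array is at 6.97 and the highest NC1 array at 6.33. Each panel has its own log2 axis, which does not start at 0.

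With the miR-138 mimic, 0 of the 55 members were called higher and 0 lower against the 6 NC1 arrays, where 0.641% of all genes were called higher and 0.402% lower (limma). An unadjusted p under 0.05 was found for 4 members and for 2087 of all 18417 genes, a larger share than among the members. Of the 55 differences 28 were positive and 27 negative, with a median of 0.00 and a range of -0.34 to 0.51. The mimic arrays lay above all NC1 arrays for 1 member, ATP5MG, against 3.89% of all genes, and below all NC1 arrays for 2 members, ATP5F1D and COX6C, against 2.54% of all genes. ATP5F1D was at 6.21 to 6.32 in the mimic arrays, against 6.33 to 6.46 in the NC1 arrays, so the groups nearly touched (difference -0.09, SE 0.07, limma adjusted p = 0.697). UQCC5 had a difference of 0.02 (SE 0.12) and COX5B one of -0.06 (SE 0.09). By class the medians were 0.07 for complex III subunits, 0.02 for complex III assembly genes, -0.07 for complex IV subunits, 0.04 for complex IV assembly genes and 0.01 for ATP synthase genes.

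The difference between the interventions was tested directly, in a comparison that shares its siRNA arrays with the one against NC1. With the mimic 8 members were lower than with SIN3A siRNA and 0 were higher (limma), where 0.89% of all genes were called lower and 0.679% higher. These were UQCC5 (-0.97, SE 0.13, limma adjusted p = 0.00366), COX5B (-0.61, SE 0.10, limma adjusted p = 0.00717), COX6C (-0.48), COX7A2 (-0.47), ATP5MF (-0.79), ATP5ME (-0.76), ATP5F1D (-0.39) and ATP5F1EP2 (-0.51). ATP5ME was at 8.92, 9.05 and 9.12 in the mimic arrays, against 9.84, 9.70 and 9.83 in the siRNA arrays. COX7A2, a broadly expressed small subunit of complex IV, was at 9.53, 9.66 and 9.63 in the mimic arrays, against 9.99, 10.07 and 10.18 in the siRNA arrays. Mimic and siRNA arrays did not overlap in either gene, but both genes also stood lower in NC1 4 to 6 than in NC1 1 to 3 (ATP5ME at -0.47 and called, COX7A2 at -0.24 and not called). ATP5ME was at -0.11 for the mimic against NC1 4 to 6 and at 0.18 for the siRNA against NC1 1 to 3, and COX7A2 at -0.05 and 0.18, none of these called. How much of the gap between mimic and siRNA belongs to the gap between the control parts was not tested. If each part was handled with the intervention listed after it, that handling and the intervention cannot be told apart in this comparison. COX14 (-0.33, limma adjusted p = 0.0976), ATP5MJ (-0.41, limma adjusted p = 0.0548) and UQCC4 (-0.37, limma adjusted p = 0.164) were not called between the interventions. The count of 8 was 3 or 4 without any 1 treated array, and 19 (1 higher and 18 lower) with the NC1 arrays kept out of the fit. SIN3A itself differed by 0.05 between mimic and siRNA (SE 0.20, limma adjusted p = 0.953).

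The parts of the control differed in 8 members. In NC1 4 to 6, 4 members were higher than in NC1 1 to 3 and 4 were lower (limma), where 6.86% of all genes were called higher and 3.18% lower. ATP5PB, the b subunit of the peripheral stalk, was at 5.61, 5.70 and 5.88 in NC1 4 to 6, against 4.83, 4.84 and 4.69 in NC1 1 to 3 (difference 0.95, SE 0.10, limma adjusted p = 2.45e-05). The siRNA arrays of ATP5PB (5.51, 5.85 and 5.64) and its mimic arrays (5.86, 5.77 and 5.68) lay with NC1 4 to 6. UQCRH, the hinge protein gene of complex III, was at 6.88, 7.19 and 7.16 in NC1 4 to 6, against 6.37, 6.23 and 6.37 in NC1 1 to 3 (0.76, SE 0.13, limma adjusted p = 0.00134). ATP5F1A (0.51) and UQCRBP1 (0.48) were the others on the higher side.

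The lower side was led by ATP5ME, at 9.10, 9.01 and 9.31 in NC1 4 to 6, against 9.60, 9.58 and 9.65 in NC1 1 to 3 (-0.47, SE 0.10, limma adjusted p = 0.0041). The small complex IV subunit gene COX7C was at 9.56, 9.55 and 9.40 in NC1 4 to 6, against 10.02, 9.91 and 9.84 in NC1 1 to 3 (-0.42, SE 0.09, limma adjusted p = 0.00592). ATP5IF1 and ATP5MK were both at -0.32. In ATP5ME, ATP5IF1, ATP5MK and COX7C the siRNA arrays lay near or above NC1 1 to 3 and the mimic arrays near NC1 4 to 6. None of the 8 members that differed between the parts was among the 9 called with the siRNA against all NC1 arrays. In that fit a gap between the parts counts as spread within NC1, which makes a call less likely for such members.

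**Figure D4:**
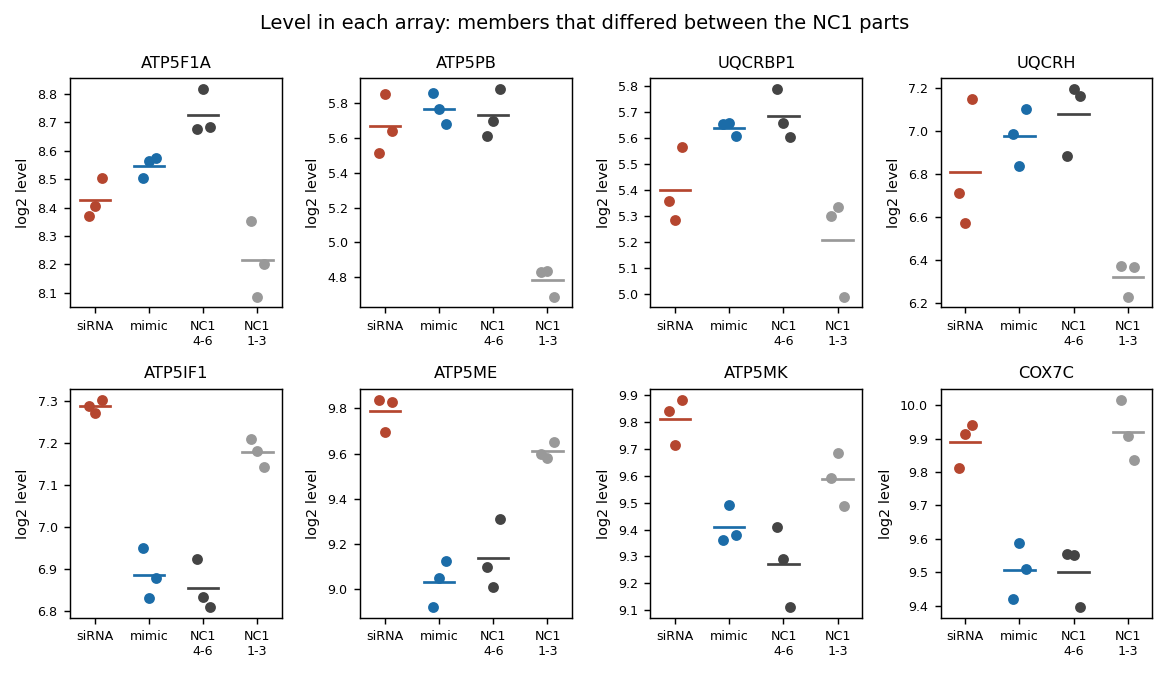
Log2 level in each array for the 8 members that differed between NC1 4 to 6 and NC1 1 to 3, with SIN3A siRNA at the left of each panel, then the miR-138 mimic, NC1 4 to 6 and NC1 1 to 3, and a line at each mean. The upper row shows the 4 genes higher in NC1 4 to 6 and the lower row the 4 genes lower there, where the mimic points lie at the height of NC1 4 to 6. Each panel has its own log2 axis, which does not start at 0.

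Set against NC1 4 to 6 alone, SIN3A siRNA gave 20 members higher and 1 lower (limma), where 5.16% of all genes were called higher and 6.28% lower. The 1 lower member was ATP5F1A, the alpha subunit gene, at 8.37, 8.41 and 8.50 in the siRNA arrays, against 8.68, 8.82 and 8.68 in NC1 4 to 6 (-0.30, SE 0.09, limma adjusted p = 0.0411). Its difference from NC1 1 to 3 was 0.21 and did not pass. Beyond the 9 members called against all NC1 arrays, the 20 held UQCRQ (0.39), UQCC3 (0.49), COX4I1 (0.29), COX6B1 (0.33), COX7A2 (0.43), COX7B (0.77), COX7C (0.39), ATP5ME (0.65), ATP5MK (0.54), ATP5PD (0.36) and ATP5IF1 (0.43). For COX7C the value against NC1 1 to 3 was -0.03, and for ATP5IF1 it was 0.11.

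Against NC1 1 to 3 alone, SIN3A siRNA gave 10 members higher and 0 lower (limma), where 3.66% of all genes were called higher and 2.04% lower. Of these, 7 were called against both parts in the same direction (UQCC5, COX5B, COX6C, COX14, ATP5MF, ATP5F1D and ATP5F1EP2), and 0 were called in opposite directions. Both comparisons use the same siRNA arrays, and 2.48% of all genes met the same condition. UQCC5 was at 1.05 against NC1 4 to 6 and 0.93 against NC1 1 to 3, COX5B at 0.58 and 0.53, COX14 at 0.52 and 0.40, and COX6C at 0.37 and 0.31. The value of ATP5MF moved most of these (0.61 and 0.38), while ATP5F1EP2 (0.46 and 0.39) and ATP5F1D (0.29 and 0.30) moved less. UQCR11 (0.34), UQCRH (0.49) and ATP5PB (0.88) were called against NC1 1 to 3 alone. The count of 10 was 3 with only the arrays of these groups in the fit, and 4 to 6 without NC1 1, 2, 3 or 5 or any 1 siRNA or mimic array.

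The mimic gave 0 members higher and 0 lower against NC1 4 to 6 (limma), where 1.59% of all genes were called higher and 1.89% lower. An unadjusted p under 0.05 was found for 3 members and for 2259 of all 18417 genes, again a larger share than among the members. Against NC1 1 to 3 the mimic gave 5 members higher and 5 lower, where 6.01% of all genes were called higher and 2.54% lower. Higher were ATP5PB (0.98), UQCRH (0.65), UQCRBP1 (0.43), ATP5MC2 (0.35) and ATP5F1A (0.33), and lower were ATP5ME (-0.58), COX7C (-0.41), ATP5MF (-0.41), COX7A2 (-0.29) and ATP5IF1 (-0.29). The comparisons of the mimic and of NC1 4 to 6 with NC1 1 to 3 share that control; in it ATP5PB was at 0.98 for the mimic and 0.95 for NC1 4 to 6, and ATP5ME at -0.58 and -0.47. Without NC1 2 or any 1 mimic array the count of 10 was 4 to 6.

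**Figure D5:**
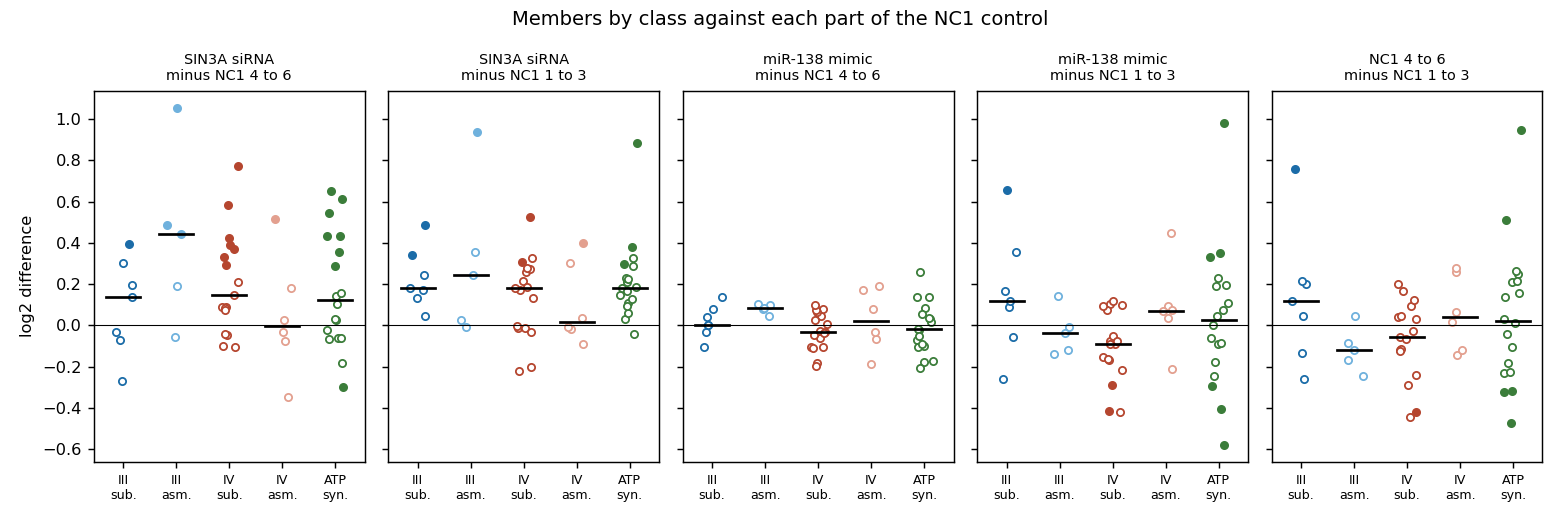
Log2 differences of the members of complexes III and IV (subunits, sub.; assembly genes, asm.) and the ATP synthase (syn.) against each part of the control, with each point a gene, filled where the limma adjusted p was under 0.05, and a bar at the class median. Filled points are above 0 in both siRNA panels except for ATP5F1A (-0.30 against NC1 4 to 6), absent for the mimic against NC1 4 to 6, and on both sides of 0 in the panels for the mimic and NC1 4 to 6 against NC1 1 to 3.

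Other genes of these complexes, from lists set with earlier results known, were counted the same way against all NC1 arrays. With the siRNA 2.35% of all genes were called higher there and 1.66% lower. Of 24 further complex IV genes 2 rose and 0 fell, the assembly genes COA8 (0.46, SE 0.11) and CMC2 (0.41, SE 0.10). Of 5 further ATP synthase genes 2 rose and 0 fell: ATPAF1, a chaperone of the beta subunit (0.47, SE 0.09, limma adjusted p = 0.00906), and TMEM70, which helps to build the c ring (0.37, SE 0.07, limma adjusted p = 0.0128). Of 5 further complex III genes, with the cytochrome genes CYC1 (0.15) and CYCS (-0.24) among them, and of 6 complex II genes, with SDHAF2 (0.46) and SDHA (0.22), 0 were called (limma; unadjusted p under 0.05 for 1 and 3 genes). With the mimic 0 genes of these lists were called (unadjusted p under 0.05 for 2, 4, 0 and 1 genes of the complex III, complex IV, ATP synthase and complex II lists).

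Among 18 regulators of nuclear respiratory genes 0 were called with the siRNA (limma; 6 at an unadjusted p under 0.05), and their median was -0.12. Against NC1 4 to 6 alone the siRNA gave 2 higher and 3 lower, where 5.16% of all genes were called higher and 6.28% lower. Against NC1 1 to 3 alone it gave 0 higher and 2 lower, where the shares of all genes were 3.66% and 2.04%. The parts themselves differed in 6 of the 18, where 6.86% of all genes were called higher in NC1 4 to 6 and 3.18% lower. The smallest adjusted p values belonged to GABPB2 (-0.36), KLF4 (0.45), PPRC1 (0.28) and CREB1 (-0.41). The genes of the factors whose motifs were searched above were at -0.05 (NRF1), -0.17 (GABPA) and -0.13 (YY1). Of 18 genes used as measures of mitochondrial content 2 rose (11.1%, against 2.35% of all genes) and 0 fell (1.66% of all genes). These were TIMM23, part of the inner membrane import channel (0.52, SE 0.11), and PHB2, a prohibitin (0.39, SE 0.08). This count depended on the control. Against NC1 4 to 6, 2 were higher (11.1%) and 3 lower (16.7%), and against NC1 1 to 3, 6 were higher (33.3%) and 0 lower. In NC1 4 to 6, 7 (38.9%) were higher than in NC1 1 to 3. The shares of all genes in these comparisons are those given for the regulators. Mitochondrially encoded genes were not analysed here. EMC8, which carries an older COX name without belonging to complex IV, rose by 0.72 (SE 0.13, limma adjusted p = 0.00946).

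The neighbouring families are given as a scale for the members. Of 34 complex I subunit genes 10 rose (29.4%, against 2.35% of all genes) and 0 fell (1.66% of all genes) with the siRNA, with a median of 0.28. Every siRNA array lay above NC1 in 19 of them (55.9%, against 5.49% of all genes). NDUFA2 (0.85, SE 0.13) and NDUFA5 (0.66, SE 0.11) were among them. Against NC1 4 to 6 it was 15 higher (44.1%, against 5.16% of all genes) and 0 lower. Against NC1 1 to 3 it was 8 higher (23.5%, against 3.66% of all genes) and 0 lower. Of 74 mitochondrial ribosomal protein genes 5 rose and 0 fell, with a median of 0.14 and 15 genes (20.3%) above all NC1 arrays. With the mimic 1 complex I gene fell, NDUFC1 (-0.59), and 1 ribosomal protein gene rose, MRPS23, where 0.402% of all genes were called lower and 0.641% higher. A test of the members against these families was not run. Of the 55 members, 29 were called in none of the 8 comparisons described, among them the beta subunit gene ATP5F1B, the core protein genes UQCRC1 and UQCRC2, and 5 of the 6 complex IV assembly genes. The probe set of UQCRC1 was dim (mean 4.59), so the lack of a call may not show an unchanged gene.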

How the data were processed

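Total RNA was measured on 12 whole-transcript arrays. The deposited values are log2 levels, 1 per probe set and array, and RMA and Partek 6.3 are the tools named, with no role, in the submitters' processing notes. They were used as deposited, with no filter on dim probe sets. Of 33297 probe sets 19460 carried 1 gene symbol, 1754 several and 12083 none, per the platform annotation, and 769 genes had more than 1 usable probe set (ATP5MK and COX6A1 among members). All genes were fitted in limma 3.58.1 (R 4.3.3) with 3 group means, or with 4 means for values against either part of NC1, and p-values were adjusted by Benjamini-Hochberg over 18417 genes. Calls were made at adjusted p under 0.05. SIN3A was also tested by an exact two-sided permutation test. Arrays give no counts, so their number limits the precision. The code was tested on simulated data. Alternatives were other normalizations, filters, variance models and fits, a replicate block, and each array left out. The block left NC1 1 to 3 as the only control, since NC1 4 to 6 share no replicate number with treated arrays. Members called with the siRNA or mimic, the extremes of each class and the paralog families were named by rule. Same-numbered siRNA, mimic and NC1 1 to 3 arrays correlated between -0.10 and 0.03 in their deviations, so no pairing was used. Pairing of treated arrays with NC1 4 to 6 was not examined. Members, lists and roles were chosen with earlier results of these data known. Promoter and microRNA sequences are from RefSeq (GRCh38.p14), credited by symbol.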

Additional observations from a re-analysis of the deposited data

Results flagged for a closer look

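For 6 of the 55 members and SIN3A, 1 NC1 array stood far from the other 5 by Dixon's criterion, which flags about 1 in 20 groups by chance. In 4 genes this was NC1 3. COX20, the chaperone of COX2, was at 5.92 in NC1 3, against 6.55 to 6.70 in the others, and ATP5MG, subunit g of the ATP synthase, was at 9.54, against 9.76 to 9.85. COX10 was at 5.79 in NC1 3, against 5.36 to 5.47, and COX6B1 at 10.13, against 9.86 to 9.96. In 2 genes it was NC1 6, with COX7B at 7.13, against 7.98 to 8.35, and the complex III assembly gene UQCC3 at 4.03, against 4.60 to 4.68. None of these 6 genes was called with the siRNA or the mimic against all NC1 arrays.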

How the results depend on the processing

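The number of members called with SIN3A siRNA against all NC1 arrays was 9, and 2 to 11 with 1 array left out (fewest without siRNA array 3), 5 with only the compared arrays in the fit and 5 with the replicate block, which made no call for UQCC4, COX6C, ATP5MF, ATP5MJ, ATP5F1D and ATP5F1EP2. The mimic's 0 calls became 6 (3 higher, 3 lower) with the replicate block, and stayed 0 with any 1 array left out. NC1 4 to 6 share no replicate number with a treated array. With the block, the values against all NC1 arrays are therefore values against NC1 1 to 3, and do not check the comparison with all NC1 arrays. The 8 calls between mimic and siRNA became 19 with only the compared arrays, 14 with the block, and 3 to 10 with 1 array left out. Against NC1 1 to 3, the siRNA's 10 became 3 with only the compared arrays, 6 after a second quantile normalization, 5 with the block, and 4 to 11 with 1 array left out. The mimic's 10 there became 4 with only the compared arrays, and 4 to 10 with 1 array left out. Against NC1 4 to 6 the siRNA's 21 was 15 to 23 with 1 array left out and the mimic's 0 stayed 0. Between the NC1 parts, 8 was 6 to 9. Leaving out NC1 3 and NC1 6 together, chosen after seeing the data, gave 10, 0 and 12 for the siRNA, the mimic and their difference. Beyond the smaller number of arrays and the changed control of the block, the cause of these shifts was not tested. Some uncalled mimic values near 0 changed sign. With 1 array left out, ATP5MJ ranged from -0.0703 to 0.0208, UQCC4 from -0.0088 to 0.0841 and UQCC5 from -0.0441 to 0.071; UQCC4 was -0.0097 and UQCC5 -0.0357 with the block, and UQCC5 was -0.1173 without NC1 3 and NC1 6. The SIN3A call was lost without siRNA 2 or 3, and for the mimic under 9 alternatives (limma adjusted p up to 0.202).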
